A study of Mus musculus with 3 samples.

Results

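The genes described are the enzymes that conjugate, hydrolyse or reduce drugs, dietary compounds and other foreign molecules, measured in mouse distal colon. They were chosen by symbol from the Ugt1, Ugt2, Ugt3, Gst, Mgst, Sult, Nat, Ces, Akr1, Akr7 and Fmo series. Of Gst only names with a class letter and number were taken, and of Nat only Nat1, Nat2 and Nat3. Of the 24346 gene symbols in the files, 109 belong to this set. The tissue was the distal colon of wild-type mice aged 8 weeks, labelled as strain JAX, which is the name of a supplier, and as steady-state, with no allele or agent named. All 3 labelled replicates carry the same labels, so there is 1 group and no contrast between conditions. What was measured is the level of polyadenylated RNA in FPKM, fragments per kilobase of transcript scaled to the mapped fragments of the file, summed over the listed isoforms of each symbol.

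The 3 files held 3.78e+06, 3.79e+06 and 1.24e+06 mapped fragments, as recovered from the deposited confidence bounds, and replicate 3 was therefore the least precise. Their names carry the same sample tag, index and lane and differ only in the last number, and whether they came from separate animals cannot be told from the labels. Differences between the files were about the size of sampling noise, so they were taken as 1 sample, and each ± below is the SD of 3 measurements of that sample and holds no spread between animals. All 10 genes of a list of distal colon epithelium reached 1 FPKM in every file, among them the colonic surface protein Lypd8, the posterior homeobox gene Hoxb13 and the goblet cell mucin Muc2. All 7 genes of smooth muscle and fibroblasts did so too, so the tissue was a mixture of cell types, in which fewer cells of a type and less RNA per cell cannot be told apart. All 10 liver genes on the list also reached 1 FPKM in every file, with a summed level of 316 to 344 FPKM and albumin (Alb) at 129 ± 5.35 FPKM. Against 48.5% of all genes, 5 of 10 small intestine genes did so. They were led by the bile acid binding protein Fabp6 at 95.6 ± 5.85 FPKM, the defensin Defa24 at 63.6 ± 11.3 FPKM and the fatty acid binding protein Fabp2 at 41.7 ± 6.26 FPKM, while lactase (Lct) stood at 0.0440 ± 0.0441 FPKM and Gata4 was listed at 0. Of 7 kidney genes none reached 1 FPKM, with 5 listed at 0. What share of the levels below goes with the liver and small intestine genes was not tested.

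Foreign molecules are commonly handled in stages. Functionalising enzymes such as flavin monooxygenases, carbonyl reductases and carboxylesterases expose or create a reactive group, and transferases then attach glucuronic acid, sulfate, glutathione or an acetyl group, which makes most products more soluble and easier to export. In the colon these enzymes meet dietary compounds, bacterial metabolites and conjugates that arrive with bile. Many of them belong to large families of neighbouring paralogues that differ in substrate and tissue.

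Of the 109 members, 60 (55.0%) stood at 1 FPKM or more in every file, against 48.5% of all genes. At 10 FPKM or more in every file there were 38 members, against 21.4% of all genes, and 20 members were listed at 0 in every file, against 29.9% of all genes. The share at 1 FPKM was near that of all genes. The median level was 2.70 ± 0.256 FPKM over the members and 1.23 ± 0.0232 FPKM over all genes. Together the members held 0.709% ± 0.0109 of the summed FPKM, and their own sum was unevenly spread, since the 5 highest held 40.6% ± 0.515 of it and the 10 highest 62.6% ± 0.205. For a member listed at 0, 3 fragments over the 3 files together would have made between 0.117 FPKM (Fmo9) and 0.490 FPKM (Sult2a3), so levels under these limits could have been missed at this depth.

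The threshold of 1 FPKM cut through a sparse range. Just under it, by the lowest of the 3 files, lay Sult2a8 at 0.800 FPKM, Ugt2b36 at 0.767 FPKM and Ugt2b5 at 0.764 FPKM, and just over it Ces3a at 1.40 FPKM, Ugt1a6a at 1.58 FPKM and Ces1e at 1.66 FPKM.

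By reaction, glutathione transfer held the most RNA, with a summed level of 1619 ± 29.1 FPKM or 53.5% of the members' sum. Its 24 genes were also the most widely present, with 21 (87.5%) at 1 FPKM or more in every file and a median level of 21.3 ± 0.702 FPKM. Carbonyl reduction followed with a sum of 541 ± 13.3 FPKM over 17 genes, of which 11 (64.7%) reached 1 FPKM in every file. Sulfation reached a sum of 411 ± 4.14 FPKM through few genes, since 6 of its 19 (31.6%) reached 1 FPKM and the median gene stood at 0.187 ± 0.162 FPKM. Glucuronidation was similar in shape, with a sum of 209 ± 3.25 FPKM, 6 of 20 genes (30%) at 1 FPKM or more and a median of 0.376 ± 0.0854 FPKM. Its genes were grouped by name and include the 2 Ugt3 genes, whose sugar donor was not looked at. Ester hydrolysis summed to 191 ± 7.49 FPKM, with 11 of 19 genes (57.9%) at 1 FPKM or more and a median of 1.99 ± 0.147 FPKM. These values include the non-coding pseudogene Ces2d-ps, at 30.1 ± 3.58 FPKM. Flavin monooxygenation summed to 36.8 ± 5.10 FPKM with 4 of 7 genes (57.1%) at 1 FPKM or more, and acetylation to 20.99 ± 2.18 FPKM with 1 of 3.

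**Figure D1:**
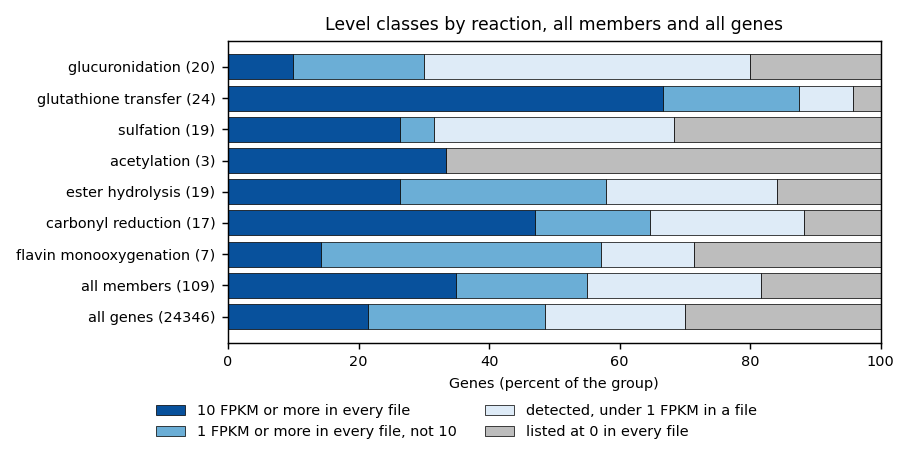
The share of genes in each level class (percent of the group, with the number of genes in brackets) is drawn for the 7 reactions, for all 109 members and for all 24346 genes. Glutathione transfer has 21 of 24 genes at 1 FPKM or more in every file, while glucuronidation has 6 of 20 and sulfation 6 of 19.

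The microsomal glutathione transferases, membrane enzymes that conjugate lipophilic molecules and reduce lipid peroxides, held the highest member. Mgst3 had 385, 403 and 400 FPKM in the 3 files, the highest level of all 109 genes and above that of 99.3% of all genes. Mgst1, which protects membranes against lipid peroxides, had 145, 146 and 158 FPKM. Mgst2, which can also make leukotriene C, had 63.9, 56.7 and 60.4 FPKM. The ranges of the 3 genes over the files did not overlap, and Mgst3 stood 2.68-fold above Mgst1 (95% counting interval 2.48 to 2.90), which in turn stood 2.44-fold above Mgst2 (2.11 to 2.83). These ratios are of levels per length, pooled over the files by depth, and their intervals cover counting error only.

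The omega class, whose members reduce dehydroascorbate and remove glutathione from proteins, was carried by 1 of its 2 genes. Gsto1 had 275, 283 and 283 FPKM, while Gsto2 had 0.463, 0.483 and 0.704 FPKM. Gsto2 rested on about 2.46 effective fragments, meaning its squared pooled FPKM over its variance, with isoform variances added. This is not a count of fragments, and because of it no ratio of Gsto1 to Gsto2 is given. The pi class, which conjugates electrophiles such as acrolein, had both of its genes at high levels. Gstp1 had 163, 158 and 172 FPKM and Gstp2 had 108, 109 and 94.2 FPKM, with Gstp1 the higher in every file and a ratio of 1.52 (1.36 to 1.70). The 2 genes lie side by side on chromosome 19 and their transcripts differ at 13 of 707 aligned bases. Within that stretch, fragments that cross none of these differences cannot be given to 1 gene, which the counting interval does not take in. The stretch of 80 coding bases with the most differences is shown to make this visible (GRCm38, transcript strand), with the 6 bases that differ in capitals.
Gstp1: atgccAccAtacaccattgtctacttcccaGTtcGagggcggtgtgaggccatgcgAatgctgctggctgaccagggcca
Gstp2: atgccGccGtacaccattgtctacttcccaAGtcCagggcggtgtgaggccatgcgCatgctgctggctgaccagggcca

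The mu class conjugates epoxides and quinones, and all 7 of its clustered genes on chromosome 3 reached 1 FPKM in every file. Gstm1 had 151, 155 and 175 FPKM and held 49.7% ± 1.57 of the class's sum of 323 ± 19.1 FPKM. Gstm2 had 76.3, 70.4 and 93.7 FPKM, so that Gstm1 stood 2.05-fold above it (1.86 to 2.26). Gstm5 followed with 39.2, 37.2 and 33.3 FPKM and Gstm3 with 20.999, 19.6 and 23.3 FPKM. The lower 3 genes were closer together, with means of 9.53 ± 1.23 FPKM for Gstm6, 8.76 ± 2.46 FPKM for Gstm7 and 5.86 ± 1.92 FPKM for Gstm4. The interval of Gstm6 over Gstm7 included 1 (ratio 1.07, 0.790 to 1.46), so their order was not resolved. Gstm5 overlaps 4933431E20Rik, which stood at 18.1 ± 1.23 FPKM, and since it is not stated whether counting used strand, their shared reads cannot be told apart.

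The theta class, which acts on small halogenated hydrocarbons, had 3 of its 4 neighbouring genes on chromosome 10 at 10 FPKM or more. Gstt3 had 27.8, 31.7 and 22.6 FPKM, Gstt1 had 22.7, 23.3 and 18.4 FPKM, and Gstt2 had 10.96, 16.4 and 15.3 FPKM. Gstt3 and Gstt1 overlapped between files (ratio 1.29, 1.07 to 1.55), and without replicate 2 the interval included 1 (1.23, 0.959 to 1.58). Gstt3 also shares a stretch of 525 identical bases with Gm20441, and the assignment of reads between them was not tested. Gstt4 was listed at 0 (limit 0.426 FPKM). Gstk1, a transferase of mitochondria and peroxisomes, had 26.5, 25.9 and 36.7 FPKM. Gstz1, the maleylacetoacetate isomerase of tyrosine breakdown, had 13.1, 14.5 and 14.97 FPKM, and its start overlaps Pomt2, which stood at 2.64 ± 0.275 FPKM.

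The alpha class was the lowest of the large glutathione transferase classes, with a sum of 34.8 ± 4.01 FPKM over 4 genes. Its highest gene was Gsta4, which conjugates hydroxynonenal from oxidised lipids, at 18.3, 19.3 and 16.2 FPKM. Gsta3, which in mouse liver detoxifies aflatoxin epoxide, had 8.29, 12.7 and 9.30 FPKM, and Gsta4 was the higher in every file (ratio 1.78, 1.34 to 2.39, or 2.95, 2.11 to 4.18, when each gene is taken by its highest isoform alone). Gsta1 had 7.27, 5.26 and 4.90 FPKM and Gsta2 had 1.25, 1.35 and 0.291 FPKM. The transcripts of Gsta1 and Gsta2 differ at 24 of 870 aligned bases, and Gsta1 is matched more closely still by Gm3776 (99.5% over 874 bases), which stood at 4.63 ± 0.937 FPKM. The levels of these near copies are therefore uncertain. A stretch of 80 coding bases on chromosome 9 (GRCm38, transcript strand) shows how little separates Gsta1 from Gsta2, with the 5 differences in capitals.
Gsta1: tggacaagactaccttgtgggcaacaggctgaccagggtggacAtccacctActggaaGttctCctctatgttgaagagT
Gsta2: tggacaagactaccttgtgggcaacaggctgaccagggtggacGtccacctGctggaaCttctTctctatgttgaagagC

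**Figure D2:**
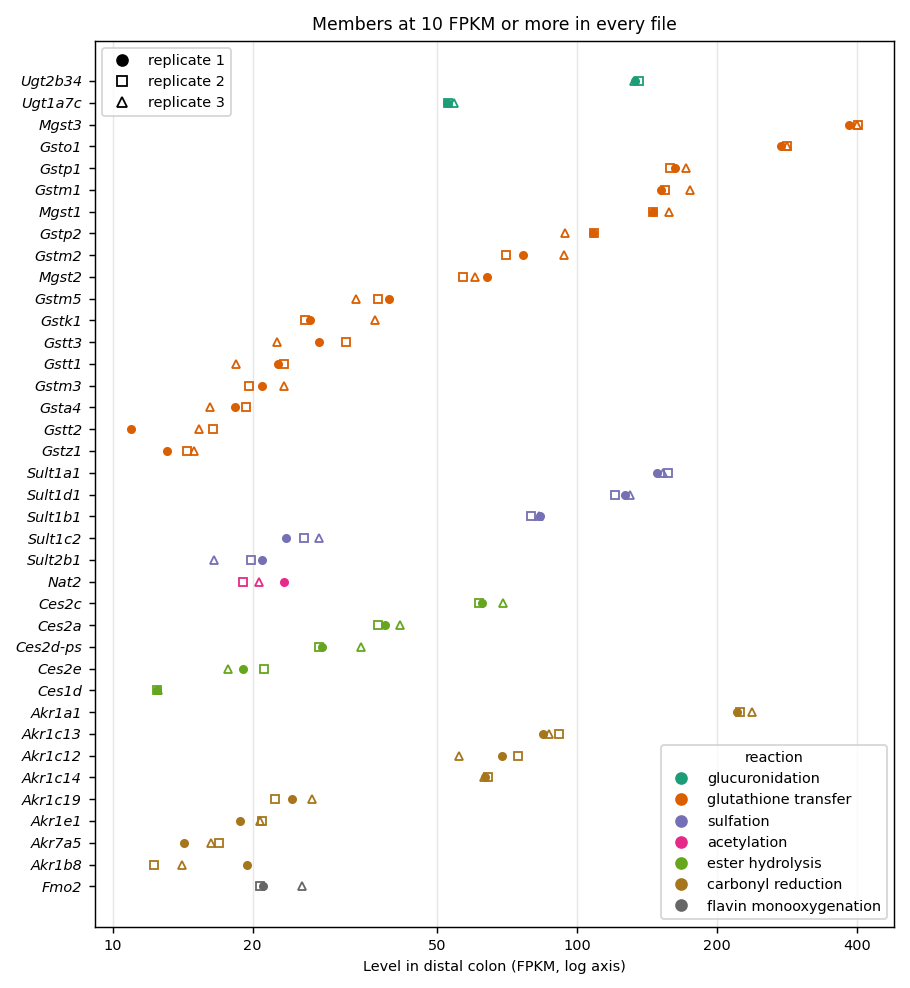
Each of the 38 members at 10 FPKM or more in every file is drawn with its level in the 3 files (FPKM, log axis), coloured by reaction and ordered by mean within it. The 3 symbols lie close together for most genes, and 16 of the 38 genes are glutathione transferases, led by Mgst3 at 385 to 403 FPKM.

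Sulfotransferases move a sulfate from the donor PAPS to phenols, steroids and amines, and their RNA in the colon came mostly from the Sult1 family, which held 386 ± 6.42 FPKM of it. Sult1a1, the main phenol sulfotransferase, had 149, 157 and 153 FPKM. Sult1d1, which sulfates catecholamines in the mouse, had 127, 121 and 130 FPKM. Sult1b1, which acts on thyroid hormones and phenols, had 83.0, 79.4 and 82.7 FPKM, and Sult1c2 had 23.6, 25.8 and 27.8 FPKM. These 4 genes kept the same order in every file, with Sult1a1 1.23-fold above Sult1d1 (1.15 to 1.31), Sult1d1 1.53-fold above Sult1b1 (1.44 to 1.63) and Sult1b1 3.24-fold above Sult1c2 (2.86 to 3.68). Sult1c1 and Sult1e1, the oestrogen sulfotransferase, were listed at 0 (limits 0.252 and 0.311 FPKM).

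Outside Sult1, 2 of 13 sulfotransferase genes reached 1 FPKM in every file. Sult2b1, which sulfates cholesterol and pregnenolone, had 20.9, 19.9 and 16.5 FPKM. Sult4a1, best known from brain, had 1.79, 2.14 and 3.62 FPKM, 9.03-fold below Sult2b1 (6.41 to 13.0). The Sult2a genes, known for sulfating bile acids and dehydroepiandrosterone in liver, form a cluster of 8 genes over 869 kb of chromosome 7, and none had a mean of 1 FPKM. The highest of them, Sult2a8, had 0.821, 0.800 and 0.831 FPKM, and Sult2a3, Sult2a4, Sult2a6 and Sult2a7 were listed at 0. No sulfotransferase gene of the Sult1 family had a near-identical match, meaning an alignment of 100 bases or more to another gene's transcript that is at least 97% identical as a whole. A closely shared stretch inside a longer and less alike alignment can escape this search, so divided reads are not excluded. Over their whole length the Sult1 transcripts were at most 55.9% identical to each other.

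Glucuronosyltransferases attach glucuronic acid to phenols, bilirubin, steroids and drugs. The Ugt1a genes are made from 1 locus on chromosome 1 in which each gene starts with exons of its own, mostly a single one, and all share the same later exons, so that only the first part of the protein, which binds the substrate, differs. The 8 listed Ugt1a genes share their last 4 exons, the first of them chr1:88215044-88215175 on GRCm38, plus strand, and 1311 bases of these exons are identical in all 8 transcripts. Their own exons were between 57.9% and 96.75% identical over the last 800 bases of each gene's own part, the highest value being that of Ugt1a6a and Ugt1a6b. The junction is shown for the 4 genes at 1 FPKM or more and for the closest relatives of Ugt1a7c, with the last 30 bases of the gene's own exon in lower case and the first 30 bases of the shared exon in capitals. The capitals are the same in every line, and fragments that fall wholly within them or further along cannot be given to 1 gene.
Ugt1a7c: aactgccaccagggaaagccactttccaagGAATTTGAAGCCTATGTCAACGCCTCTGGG
Ugt1a6b: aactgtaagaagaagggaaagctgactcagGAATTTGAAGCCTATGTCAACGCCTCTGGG
Ugt1a6a: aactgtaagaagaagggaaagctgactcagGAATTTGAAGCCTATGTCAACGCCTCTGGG
Ugt1a1: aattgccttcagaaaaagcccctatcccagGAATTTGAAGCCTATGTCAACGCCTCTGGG
Ugt1a10: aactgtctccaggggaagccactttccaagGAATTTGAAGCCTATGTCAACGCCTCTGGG
Ugt1a9: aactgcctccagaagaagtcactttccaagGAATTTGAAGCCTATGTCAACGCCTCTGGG

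At this locus Ugt1a7c, a xenobiotic-conjugating form known from the rodent gut, was far above the others, with 52.5, 52.8 and 54.4 FPKM or 84.9% ± 1.48 of the locus's sum. Ugt1a6b had 3.05, 3.61 and 4.62 FPKM, Ugt1a6a, which like it conjugates small planar phenols, had 3.04, 1.58 and 4.08 FPKM, and Ugt1a1, the bilirubin-conjugating form, had 2.35, 3.03 and 2.28 FPKM. Of these lower 3, Ugt1a6a overlapped between files with each of the others, while the ranges of Ugt1a6b and Ugt1a1 did not overlap. Both intervals between neighbours included 1, while Ugt1a7c stood 15.05-fold above Ugt1a6b (10.7 to 21.9). Ugt1a6a and Ugt1a6b end their own exons with the same 30 bases, and the split between that pair is uncertain. Ugt1a10 and Ugt1a9, whose own exons are 80.3% and 81.3% identical to that of Ugt1a7c, had means of 0.156 ± 0.247 and 0.0993 ± 0.148 FPKM. Ugt1a5 and Ugt1a2 stood at 0.0201 ± 0.0174 FPKM each.

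The Ugt2 genes lie in a separate cluster of 10 over 601 kb of chromosome 5 and have their own exons, apart from Ugt2a1 and Ugt2a2, which overlap. Ugt2b34 had 133, 136 and 132 FPKM and alone held 64.1% ± 1.22 of the RNA for glucuronidation. Ugt2b35 had 8.11, 8.60 and 8.56 FPKM, so that Ugt2b34 stood 15.99-fold above it (14.0 to 18.3). None of the Ugt2b genes had a near-identical match. However, Ugt2b5, Ugt2b37 and Ugt2b38 were 91.6% to 94.0% identical to each other over whole transcripts, and the search can miss closer stretches within them. The assignment of reads among them is therefore uncertain. Ugt2b34 and Ugt2b35 were 61.5% identical, and their ratio was the largest of the 14 that could be given between the leading pair of a family. Of the others, Ugt2b36 had a mean of 1.55 ± 1.09 FPKM, with replicate 3 the highest at 2.80 FPKM, and the rest were under 1 FPKM. Ugt2a1, Ugt2a2 and Ugt2b37 were listed at 0 (limits 0.142, 0.144 and 0.199 FPKM). In the Ugt3 family, placed here by name alone, Ugt3a2 stood at 0.479 ± 0.0720 FPKM and Ugt3a1 was listed at 0.

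**Figure D3:**
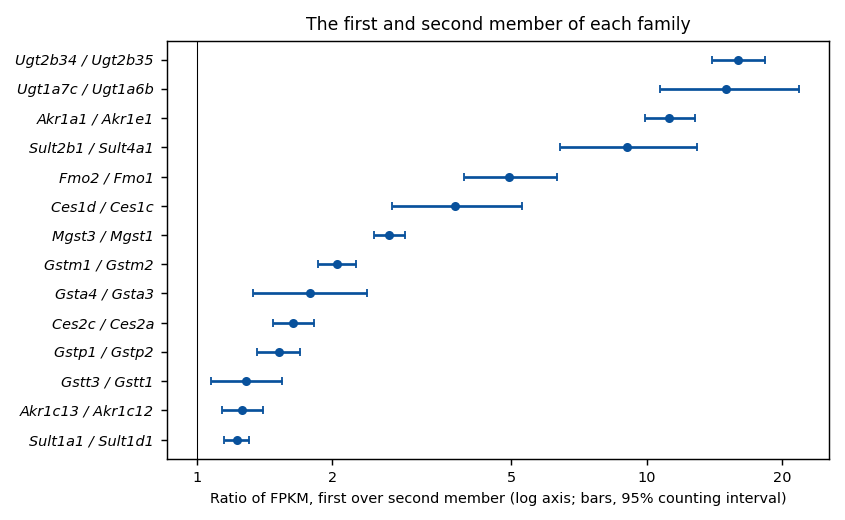
The ratio of FPKM of the first to the second member is drawn for the 14 families in which the second rests on 3 effective fragments or more (log axis), with bars for the 95% counting interval and a line at 1. The first member is the higher by choice, and the ratios run from 1.23 for Sult1a1 over Sult1d1 to 15.99 for Ugt2b34 over Ugt2b35, with Akr1a1 over Akr1e1 at 11.2 for Akr1b3 as listed without Gm6644.

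Acetylation of arylamines and hydrazines rested on 1 gene. Nat2, the mouse counterpart of human NAT1, had 23.3, 19.0 and 20.6 FPKM, while its neighbours Nat1 and Nat3 were listed at 0 (limits 0.288 and 0.277 FPKM).

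Carboxylesterases cleave ester, amide and carbamate bonds of drugs and also hydrolyse neutral lipids. The Ces2 genes, the intestinal branch of the family, held most of this RNA, with a sum of 166 ± 8.13 FPKM against 23.1 ± 0.902 FPKM for Ces1. The Ces2 sum includes 30.1 ± 3.58 FPKM of the non-coding Ces2d-ps, described below. Ces2c, which in the mouse intestine hydrolyses triacylglycerol and diacylglycerol, had 62.5, 61.5 and 69.2 FPKM. Ces2a had 38.6, 37.3 and 41.5 FPKM, and Ces2c was the higher in every file (ratio 1.64, 1.47 to 1.82). Ces2e had 19.1, 21.1 and 17.7 FPKM, Ces2g averaged 10.5 ± 0.880 FPKM and Ces2b 2.45 ± 0.398 FPKM, while Ces2f and Ces2h stood at 0.215 ± 0.247 and 0.116 ± 0.101 FPKM. Ces2d-ps, which its name marks as a pseudogene and which is listed as a non-coding transcript, had 28.2, 27.8 and 34.2 FPKM. It stood between Ces2a (1.33-fold above it, 1.17 to 1.51) and Ces2e (1.46-fold below it, 1.25 to 1.71), and shares a stretch of 181 identical bases with Ces2c.

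In the Ces1 family 1 gene stood apart from a low graded set. Ces1d, a lipase of the endoplasmic reticulum best known from liver and fat, had 12.5, 12.5 and 12.5 FPKM. Ces1c, the esterase of mouse plasma, had 4.18, 2.37 and 3.599 FPKM, 3.76-fold lower (2.71 to 5.30), and Ces1f averaged 2.42 ± 0.592 FPKM. All 4 intervals between further neighbours in level, from Ces1c to Ces1g, included 1, although the ends of that range, Ces1c at 3.38 ± 0.926 FPKM and Ces1g at 1.12 ± 0.373 FPKM, had file ranges that did not overlap. Ces1a was listed at 0, as were Ces4a and Ces5a, with limits of 0.188, 0.150 and 0.197 FPKM. Ces3a, a liver lipase, had 1.40, 1.68 and 1.84 FPKM.

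Members of the aldo-keto reductase superfamily reduce aldehydes and ketones with NADPH. Akr1a1, the aldehyde reductase that mice also use to make vitamin C, had 221, 224 and 238 FPKM and held 42.1% ± 1.72 of the RNA of this reaction. Akr1e1, a reductase of anhydrofructose, had 18.8, 20.99 and 20.8 FPKM, 11.2-fold lower (9.91 to 12.8). It is second in its group only with Akr1b3 as listed: with the entry Gm6644, described below, added to Akr1b3, Akr1b3 would be second and Akr1a1 3.90-fold above it (3.54 to 4.31). Akr1b8, a reductase of retinal and lipid aldehydes, had 19.5, 12.3 and 14.1 FPKM, and Akr1b10 had 6.51, 10.1 and 12.3 FPKM. Akr1b7, first known from the vas deferens, averaged 2.12 ± 0.375 FPKM. Akr7a5, which reduces succinic semialdehyde and aflatoxin dialdehyde, had 14.2, 16.9 and 16.2 FPKM. Akr1d1, the steroid reductase of bile acid synthesis in liver, stood at 0.0695 ± 0.120 FPKM.

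The Akr1c genes, which act on steroids and prostaglandins as well as foreign carbonyls, had 4 members at 10 FPKM or more. Akr1c13 had 84.4, 91.3 and 86.8 FPKM, Akr1c12 had 69.0, 74.6 and 55.7 FPKM, and Akr1c14, a hydroxysteroid dehydrogenase, had 63.3, 64.3 and 63.1 FPKM. Akr1c13 was above Akr1c12 in every file (ratio 1.26, 1.14 to 1.40), whereas the interval of Akr1c12 over Akr1c14 included 1 (1.09, 0.991 to 1.20). Akr1c19 followed at 24.3, 22.3 and 26.8 FPKM and Akr1c6, a reductase of sex steroids known from liver, at 3.32, 3.98 and 6.05 FPKM. Akr1c18, which inactivates progesterone, had 1 fragment in replicate 3 and none in the other files, and Akr1c21 and Akr1cl were listed at 0. Akr1c12 and Akr1c13 are 94.4% identical in transcript sequence, with 68 differences over 1260 aligned bases, and are easier to separate than the Gstp pair. Their most different stretch of 80 coding bases on chromosome 13 (GRCm38, transcript strand) is shown with its 11 differences in capitals.
Akr1c12: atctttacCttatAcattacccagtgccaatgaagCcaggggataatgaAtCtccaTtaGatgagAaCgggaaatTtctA
Akr1c13: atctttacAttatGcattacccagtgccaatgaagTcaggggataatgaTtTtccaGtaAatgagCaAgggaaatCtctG

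Flavin monooxygenases oxidise nitrogen and sulfur atoms. Fmo2, best known from lung, had 21.1, 20.7 and 25.6 FPKM and stood 4.95-fold above Fmo1 (3.93 to 6.32). Fmo1 at 4.88 ± 1.58 FPKM, Fmo5 at 4.71 ± 0.390 FPKM and Fmo4 at 4.20 ± 1.11 FPKM overlapped, and the intervals between them included 1. Fmo6 and Fmo9 were listed at 0 (limits 0.1996 and 0.117 FPKM).

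Members were also set in order of level within each family. Since the pairs follow the observed order, a ratio above 1 is no finding, and the intervals say only how far apart neighbours in that order are: 10 of 44 included 1, and in 29 pairs the ranges of the 3 files did not overlap. They do not cover the assignment of reads between near copies. By position, the 7 Gstm genes all had a mean of 1 FPKM or more over 149 kb, against 3 of 10 Ugt2 genes over 601 kb, 7 of 11 genes of the Ces2, Ces3 and Ces4 cluster over 416 kb, 6 of 9 Akr1c and Akr1e genes over 550 kb and 0 of 8 Sult2a genes. In genomic order, the highest gene was at place 3 for Ugt1a7c (of 8), Ces2c (of 11) and Akr1c13 (of 9). Ugt2b34 lay at place 1 of the 10 in its cluster, Ces1d at place 4 of 8 and Gstm1 at place 6 of 7. Whether place goes with level was not tested.

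**Figure D4:**
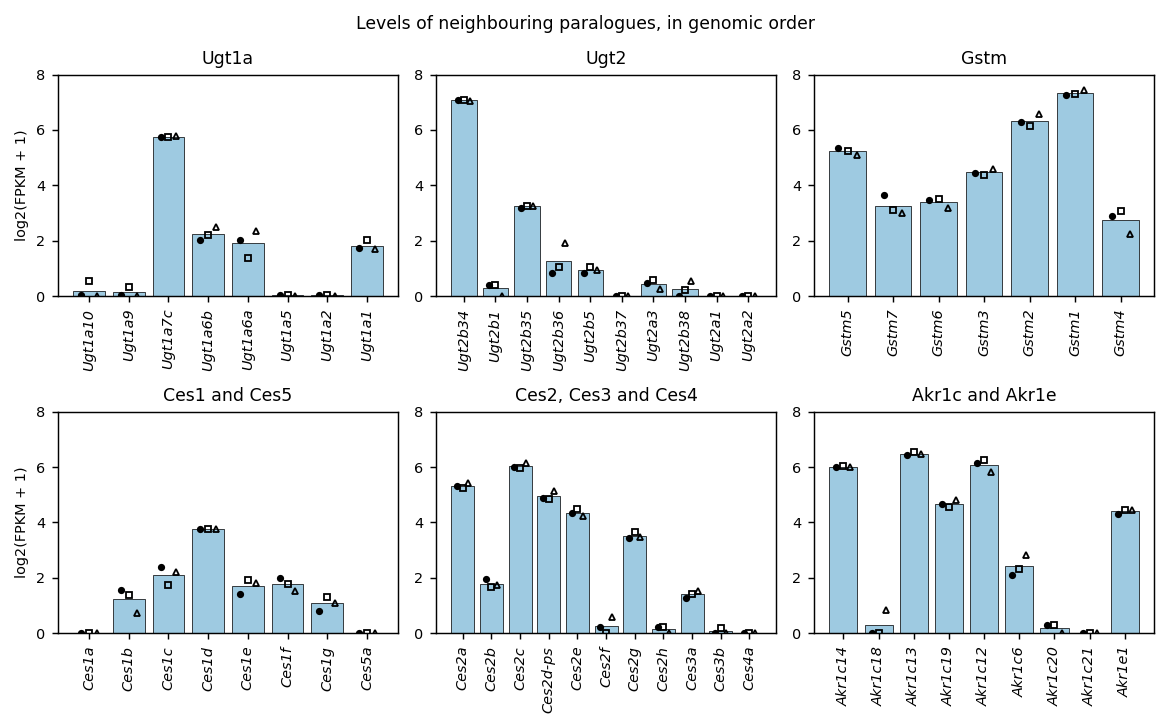
The level of each gene as log2(FPKM + 1) is drawn in genomic order in 6 clusters, with bars for the mean of the 3 files and a filled circle, open square and open triangle for replicates 1, 2 and 3. In the Ugt1a and Ugt2 clusters 1 gene stands far above its neighbours, Ugt1a7c at 53.2 FPKM and Ugt2b34 at 134 FPKM, while all 7 Gstm genes stand above 5 FPKM.

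The 3 files were compared gene by gene with a chi-square test on sampling variances from the deposited bounds, which compares files and not conditions. Of 56 members tested, 1 differed between the files after Benjamini-Hochberg adjustment over all genes, against 0.171% of all genes tested (15 of 8771). It was Akr1b3, the aldose reductase of the polyol pathway, which had 0.00128, 10.7 and 0.00376 FPKM (chi-square test, adjusted p = 6.38e-12). The files list a further gene, Gm6644, at nearly the same position, chr6:34303934-34317443, within Akr1b3 at chr6:34303930-34317489, with 56.5, 49.8 and 52.1 FPKM. The sum of both entries was 56.5, 60.5 and 52.1 FPKM (56.4 ± 4.23), and with Gm6644 added Akr1b3 no longer differed between the files and no member was called. RefSeq on GRCm38.p6 places Gm6644, a transcribed pseudogene, at chr1:55443695-55445063, and its transcript differs from that of Akr1b3 at 3 of 951 aligned bases. The stretch below, of 80 bases in the coding sequence of Akr1b3 and the matching bases of Gm6644 (GRCm38, transcript strand), holds 1 of these differences, in capitals. Akr1b3 was also matched by Gm38056 (99.7% over 1352 bases), Gm12138 and Gm6736, whose levels were not looked at here. The level of Akr1b3 alone is therefore uncertain, and how the fragments were divided between Akr1b3 and its near copies was not tested.
Akr1b3: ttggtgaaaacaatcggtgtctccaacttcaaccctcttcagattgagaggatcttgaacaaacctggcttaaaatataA
Gm6644: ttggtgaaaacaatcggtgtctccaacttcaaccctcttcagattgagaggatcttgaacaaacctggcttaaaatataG

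The listed split between isoforms changed between files in some members and not in others. Of the 109 members 98 are listed with 1 isoform and 11 with 2 or more, and no member had 2 isoforms of 20% or more of its level in every file. In Gsta3 the form of 1375 bases held 99.996%, 46.6% and 10.8% of the level in the 3 files and the form of 1470 bases held under 0.1%, then 45.0% and 89.2%. In Gstm4 the form of 1464 bases held 40.3%, 0.445% and 99.99%. The leading form also changed between files in Ces3a, Sult2a8 and Gsto2. These rest on only about 20.9, 9.81 and 2.46 effective fragments over the files together. The files were taken as 1 sample and the error of a split was not estimated. Such shifts, also those of Gsta3 and Gstm4, therefore do not show a change in isoform use. In Ces2a, Ces2e, Gstz1, Nat2 and Fmo5 the same form led in every file. In Ces2e the form of 2007 bases held 86.2%, 91.3% and 70.4% of the level, and in Nat2 the form of 1373 bases held 96.9% or more in every file. In Gstz1 the form of 1667 bases held 94.8% or more and in Ces2a that of 1964 bases nearly all. In Fmo5 the leading form, of 5285 bases, held 53.7%, 53.4% and 99.99%.

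**Figure D5:**
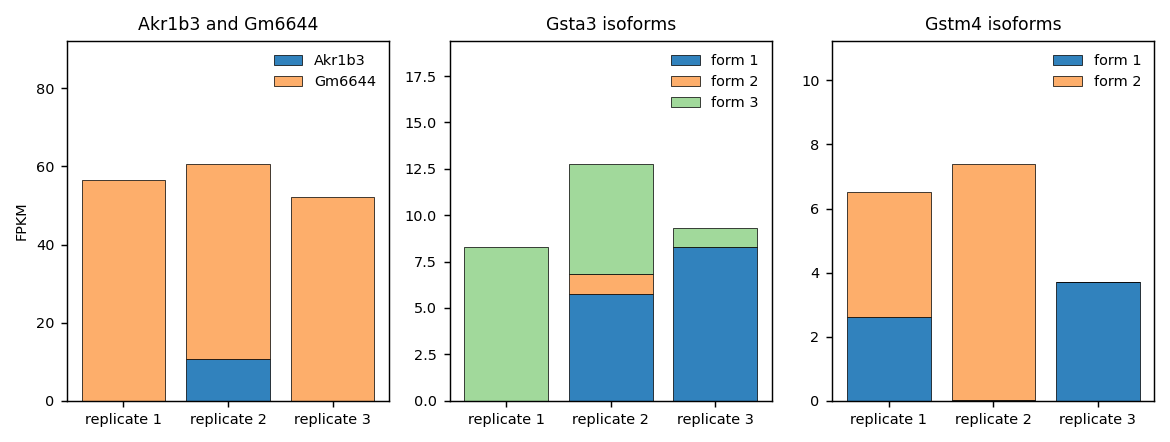
Stacked bars show FPKM in each of the 3 files for Akr1b3 with Gm6644, for the 3 isoforms of Gsta3 and for the 2 isoforms of Gstm4, numbered in order of their transcript names. The stacked total of Akr1b3 and Gm6644 stays between 52.1 and 60.5 FPKM while its split changes, and the leading isoform of Gsta3 and of Gstm4 differs between files.

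In all, 34 of the 109 members had such a near-identical match in either direction of the search, 23 of them to another member, and 20 of the 34 were at 1 FPKM or more in every file. These counts are lower bounds, since the identity was required of each alignment as a whole. Ugt1a2 and Ugt1a5, for example, were not matched to each other although they share 1311 identical bases. The 34 included all 8 Ugt1a genes, both Gstp genes, Gsta1, Gsta2, Gstm1, Gstm2, Gstm3, Gstm5, Gstt3, Akr1b3, Akr1c12, Akr1c13, Ces2a, Ces2c and Ces2d-ps. The levels of the 34 depend on an assignment of shared reads that no source used here describes. The most abundant members Mgst3, Gsto1 and Akr1a1 had no such match, nor did Sult1a1 or Ugt2b34. Closely shared stretches that the search missed are not excluded for these genes.

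Among 9 members known mainly from liver, 4 reached 1 FPKM in every file, a share near the 48.5% of all genes. They were led by Gsta3 at 10.1 ± 2.33 FPKM, Akr1c6 at 4.45 ± 1.43 FPKM and Ces1c at 3.38 ± 0.926 FPKM. Sult2a1 averaged 0.728 ± 0.634 FPKM, and Akr1d1, Ugt2b1 and Ces3b were under 1 FPKM in every file. The liver genes of the marker list summed to 333 ± 15.4 FPKM in the same files, all 10 at 1 FPKM or more, and their part in the levels of these members was not tested.

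Genes that supply the donor molecules were measured in the same files, in which 48.5% of all genes reached 1 FPKM in every file. For glucuronidation, 3 of 4 genes of UDP-glucuronate supply reached 1 FPKM in every file, with the dehydrogenase Ugdh that makes it at 79.9 ± 4.89 FPKM and the pyrophosphorylase Ugp2 at 55.3 ± 1.25 FPKM. For sulfation, 7 of 8 genes did so, with the sulfate transporter Slc26a2 at 69.4 ± 3.51 FPKM and the PAPS synthases Papss1 and Papss2 at 64.9 ± 3.18 and 64.7 ± 2.08 FPKM, while the sulfate transporter Slc26a1 stood at 0.115 ± 0.0997 FPKM. For glutathione, 6 of 9 genes did so. Glutathione reductase (Gsr) stood at 45.1 ± 2.79 FPKM, glutathione synthetase (Gss) at 38.8 ± 2.94 FPKM and the modifier subunit Gclm of its first enzyme at 24.3 ± 0.468 FPKM. The cystine transporter Slc7a11, the peptidase Ggt1 and the glutathione-degrading enzyme Chac1 were under 1 FPKM in every file, at means of 0.338 ± 0.209, 0.497 ± 0.286 and 0.188 ± 0.188 FPKM.

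Of 10 regulators known to control these enzymes, 9 reached 1 FPKM in every file, against 48.5% of all genes. The epithelial nuclear receptor Hnf4a stood at 126 ± 0.838 FPKM, the electrophile-responsive factor Nfe2l2 at 61.5 ± 5.20 FPKM and the pregnane X receptor Nr1i2 at 27.1 ± 2.71 FPKM. Of 6 pumps that export conjugates and drugs, 5 did so, with Abcb1a at 64.9 ± 3.64 FPKM, Abcg2 at 23.3 ± 0.792 FPKM and Abcc3 of the basolateral membrane at 20.004 ± 2.33 FPKM, while the apical pump Abcc2 stood at 0.457 ± 0.131 FPKM. Of 18 further conjugating and hydrolysing genes with values, 17 did so, led by the carbonyl reductase Cbr1 at 119 ± 7.54 FPKM and the lactonase Pon2 at 57.9 ± 1.44 FPKM, and the glycine conjugation gene Glyat stood at 0.464 ± 0.235 FPKM.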

How the data were processed

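Polyadenylated RNA of distal colon was extracted with TRIzol and made into Illumina TruSeq libraries, per the labels' protocols. The authors deposited 1 isoform table per labelled replicate with FPKM and its 95% bounds, per the file headers. The coverage signal that the authors deposited, per the file headers, was not used. The submitters' processing notes list Cufflinks 2.2.1, Bowtie2 2.3.4.3 and TopHat2 2.1.1. How strand, trimming and reads with several matches were treated was not given in the sources read here. These notes name GRCm39, but 76 of 109 members shared a start or end base with RefSeq genes on GRCm38.p6, so positions are printed as GRCm38.

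FPKM were summed per symbol. The upper bound less the FPKM was read as 2 standard errors, and the squared error over the FPKM as what 1 fragment adds. Where a gene had 1 isoform, over 800 bases and at most 30 fragments, 65.5%, 65.6% and 65.8% of values lay within 0.01 of a whole number, and the Theil-Sen slope on length gave the depth. Limits for genes at 0 take 3 fragments over all files. Ratios of paralogues carry a 95% binomial counting interval on the recovered fragments, with isoform variances added, and are given where the second gene rests on at least 3 effective fragments. The chi-square test between files covered 8771 genes with 1 isoform and a mean of 1 FPKM or more, adjusted by Benjamini-Hochberg at 0.05. On simulated data for the same file comparison and 8771 genes it recovered 82% of 100 genes changed 2-fold and 94% of 100 changed 3-fold in 1 file, and called 15 unchanged genes. Sequence matches were sought with BLAST 2.17.0 in GENCODE M21 transcripts, from which the printed sequences also come.

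The members and lists were chosen with earlier results of these data known. Genes named are members at 10 FPKM or more, the 3 highest of each family, members at 0, those that differ between files and, of each other list, the 3 highest and up to 3 genes under 1 FPKM; others are named beside them because they are neighbours or near copies, and these, like the isoforms shown, were chosen after their values were seen. Some genes that the rule takes in are left out here. Alternatives covered thresholds, rescaling to TPM, the highest isoform, pseudocounts, the choice of genes tested and leaving out each replicate. The work was done in SciPy 1.17.1, pandas 2.3.3, Biopython 1.88, matplotlib 3.10.9 and numpy 2.4.6 under Python 3.11.15.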

Additional observations from a re-analysis of the deposited data

Results flagged for a closer look

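Signal above the level that 3 fragments would make appeared in 3 genes that lie outside the named families and are near copies of members. Gm6644, listed at the place of Akr1b3, stood at 52.8 ± 3.403 FPKM, with a limit of 0.287 FPKM. Gm3776, which matches Gsta1, stood at 4.63 ± 0.937 FPKM, with a limit of 0.479 FPKM. Gm10639, which matches Gsta2, stood at 1.03 ± 0.711 FPKM, with the same limit.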

How the results depend on the processing

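Of 204 settings compared, 85 concerned the ratios of leading paralogues, and 84 of these kept their direction and their side of 1. The exception was Gstt3 over Gstt1, at 1.23 without replicate 2, with leave-one-out values between 1.23 and 1.33. The cause was not tested. Many of the 85 settings could not have changed sides. A pseudocount cannot move a ratio or its interval across 1, and the highest isoform changes nothing where both genes have 1 isoform. The count of 84 is therefore no measure of how robust the ratios are. The ratio of Gsta4 to Gsta3 was 2.95 with the highest isoform, and that of Akr1a1 to the second member 3.90 with Gm6644 added to Akr1b3, chosen after seeing the data. The count of members at 1 FPKM or more stayed within 1.5 times of 60 under every setting tried. Rescaling to TPM raised every level by construction, and gave sums of 488 for glucuronidation, 3789 for glutathione transfer, 961 for sulfation, 49.1 for acetylation, 447 for ester hydrolysis, 1267 for carbonyl reduction and 86.1 for flavin monooxygenation. The medians in TPM, in the same order without acetylation, were 0.879, 49.8, 0.439, 4.65, 23.0 and 9.04. Keeping only members at 1 FPKM or more left the sum of glucuronidation at 205 FPKM and, with fewer genes, gave medians of 6.09, 25.3, 53.7, 20.99, 10.5, 20.4 and 4.97 FPKM for the 7 reactions in the same order. The same addition gave a carbonyl reduction sum of 594 FPKM and a median of 13.5 FPKM. A pseudocount of 0.1 in place of 1 lowered the mean log2 level of all 7 reactions by construction. The count of 1 member that differed between files was 0 at a mean of 5 FPKM or more, where Akr1b3 is not tested, 0 with Gm6644 added and between 0 and 1 with a replicate left out, 0 without replicate 2. Without replicate 3, 1 member (Fmo5) had 2 isoforms of 20% or more in both files, and leave-one-out counts lay between 0 and 1. No paired analysis was possible because there is 1 group.

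Depth limits genes under about 1 FPKM, which rest on few fragments. Limits and intervals cover counting error only and hold neither the assignment of reads between near copies nor the spread between animals.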
